A study of Mus musculus with 6 samples.

Results

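The genes examined here encode the conjugation enzymes of the liver: the UDP-glucuronosyltransferases (UGT), the cytosolic sulfotransferases (SULT), the soluble glutathione S-transferases (GST) and the membrane-bound glutathione transferases (MGST). The rule that picks them uses the symbol and no measured value, and takes every gene of the expression table named in the *Ugt1* to *Ugt3*, *Sult1* to *Sult5*, *Gst* or *Mgst1* to *Mgst3* series. This gave 62 of the 24346 genes in the table, made up of 20 UGT, 18 SULT, 21 GST and 3 MGST genes. Expression was measured by RNA-seq of whole livers from male C57/BL6 mice aged 8 weeks (6 libraries, 3 per group), taken 24 hours after an intraperitoneal dose of CCl4 (0.6 μl per g body weight, diluted in sunflower oil). The 3 control livers (*med23* f/f, labelled wt) carried the floxed *Med23* allele alone. The 3 livers labelled *med23*Δli (genotype label med23 ko) came from mice that also carried *Albumin*-cre. The authors describe the deletion as specific to hepatocytes, and the allele in the other cells of the liver was not examined here. Every mouse received CCl4, so all levels are those of injured livers, and the comparison asks how conjugation genes differed between the genotypes after that injury.

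Conjugation enzymes attach a polar group to drugs, hormones, bile acids and reactive products, and transporters then carry the product into bile or blood. UGT enzymes lie in the endoplasmic reticulum and use UDP-glucuronate, SULT enzymes use the sulfate donor PAPS, and GST and MGST enzymes use glutathione. Hepatocytes hold most of this capacity, and many of the genes are known targets of the xenobiotic-sensing nuclear receptors or of the oxidative stress factor NRF2. CCl4 itself is activated by cytochrome P450 2E1 to a radical that attacks membrane lipids, and aldehydes from oxidized lipids are substrates of GST enzymes.

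Levels are in FPKM, in which fragments are scaled to the length of the transcript and the size of the library, and differences are on the log2(FPKM + 0.1) scale, where changes of lowly expressed genes come out too small. A gene was called up-regulated or down-regulated if it differed by more than 2-fold (a log2 difference over 1 in size) with an adjusted p under 0.05 in limma. The targeted gene did not separate the groups: *Med23* was at 3.42, 2.97 and 4.14 FPKM in the controls and at 3.40, 3.40 and 2.91 FPKM in the *med23*Δli-labelled livers. Its log2 difference was −0.11 (standard error 0.17, adjusted p = 0.685, limma). These values cover all exons and all liver cells, and the deletion was not examined by exon or by cell type. Why *Med23* did not differ was not tested, and each direction given below rests on the labels. The hepatocyte markers were abundant in every liver, with 0 of 8 past 2-fold and 1 (*Serpina1a*) lower at an adjusted p under 0.05 (log2 difference −0.70, adjusted p = 0.0305, limma). All 6 endothelial markers fell at an adjusted p under 0.05 (limma), from a summed 102 ± 18.9 FPKM to 45.4 ± 1.61 FPKM (SD, n = 3 each). Over all genes tested, 9.48% were lower at that limit. Adipocyte markers were raised in *med23*Δli replicate 2 alone, where *Adipoq* was at 5.65 FPKM against at most 0.0907 FPKM elsewhere. None of the 8 macrophage, 7 cholangiocyte, 7 stellate cell or 4 measured neutrophil markers was called. At an adjusted p under 0.05 and any size, *Des* was the only one of them to pass (log2 difference −0.56, adjusted p = 0.0497, limma), and lower values were found for 6 of 7 stellate cell, 6 of 8 macrophage, 4 of 4 neutrophil and 4 of 7 cholangiocyte markers. The T, B and NK cell markers were scarce, and 0 of 8 reached the expression filter. The part of cell composition in the results below was not tested. In whole-liver RNA, fewer cells of a type and less RNA per cell cannot be told apart.

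Of the 62 genes, 42 averaged 0.5 FPKM or more across the 6 livers and were tested, namely 15 UGT, 6 SULT, 19 GST and 2 MGST genes. Of these, 5 were up-regulated (*Ugt2b34*, *Sult2a8*, *Gstm2*, *Gstm6* and *Gsto1*), where 4.45% of all 11956 genes tested were. Another 7 were down-regulated (*Ugt2b35*, *Ugt2b38*, *Sult1a1*, *Sult1e1*, *Gsta4*, *Gstp2* and *Mgst3*), where 3.45% of all genes were. The 12 called genes were 28.6% of the conjugation genes tested, against 7.9% of all genes called in either direction. The members were chosen with earlier results of these data known, so these shares were not tested against each other. *Ugt2b5* also passed the test with a fall of less than 2-fold, so that 13 of 42 had an adjusted p under 0.05 at any size, against 21.1% of all genes. These were 5 higher genes (11.6% of all genes) and 8 lower genes (9.48% of all genes). The groups did not overlap for 18 of the 42 genes, which is 42.9% and close to the 43.7% of all genes. The *med23*Δli-labelled livers were higher for 10 of the 18 (23.3% of all genes) and lower for 8 (20.4% of all genes). Without control replicate 1 only 3 genes were down-regulated, and without *med23*Δli replicate 1 or 3 only 4 were. Without control replicate 3 there were 10, with *Gsta2*, *Gstt3* and *Ugt2b5* added to the calls.

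**Figure D1:**
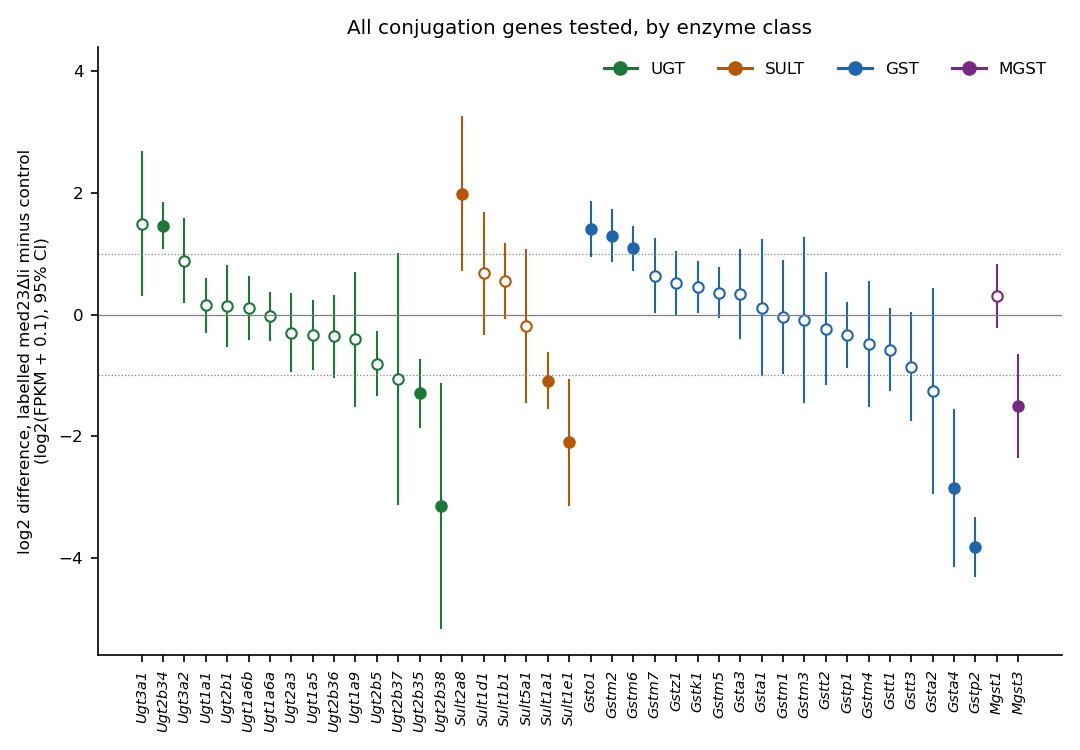
Log2 difference between the *med23*Δli-labelled livers and the controls for each of the 42 conjugation genes tested, on the log2(FPKM + 0.1) scale, ordered within each enzyme class. Vertical bars are 95% confidence intervals from limma, filled circles are called genes and dotted lines mark 2-fold; every class except MGST holds called genes on both sides of 0.

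The enzyme classes did not move as blocks. Among the UGT genes 1 was up-regulated and 2 were down-regulated of 15, with a median log2 difference of −0.30. Among the SULT genes the counts were 1 and 2 of 6 with a median of 0.18, and among the GST genes 3 and 2 of 19 with a median of −0.04. *Mgst3* was down-regulated and *Mgst1* was not called, so the MGST median of −0.60 lies between 2 genes. The median over all genes tested was 0.02, and members of a class are not replicates, so the classes were not tested against each other. The UGT median was smaller in size, from −0.19 to −0.07, in each fit that left out a liver, and −0.07 with no filter on low values. The GST median turned to 0.42 without control replicate 2, and the SULT median to −0.17 without control replicate 3. For comparison, 33 cytochrome P450 genes of families 1 to 3 were tested, which act on many of the same substrates before conjugation. Of these, 7 were up-regulated and 2 down-regulated, against 4.45% and 3.45% of all genes, with a median of 0.66.

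Summed over its genes, SULT was the class whose livers separated, and 1 gene, *Sult1a1*, made up most of that sum. The sum was 196, 142 and 114 FPKM in the controls and 100, 84.1 and 94.3 FPKM in the *med23*Δli-labelled livers. Each of the latter lay below every control, although the lowest control and the highest labelled liver were close. Without *Sult1a1* the SULT sum was 34.3, 17.1 and 16.6 FPKM in the controls and 34.7, 30.3 and 36.3 FPKM in the *med23*Δli-labelled livers, so the groups overlapped and the labelled livers were no longer lower. The GST sum was by far the largest, at 3739 ± 1261 FPKM in the controls and 3126 ± 368 FPKM in the *med23*Δli-labelled livers (SD, n = 3 each). The MGST sum was 1593 ± 472 and 1897 ± 59.1 FPKM, and the UGT sum was 852 ± 232 and 715 ± 90.5 FPKM. In these 3 classes the livers of the groups overlapped, and the controls spread more widely than the *med23*Δli-labelled livers.

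**Figure D2:**
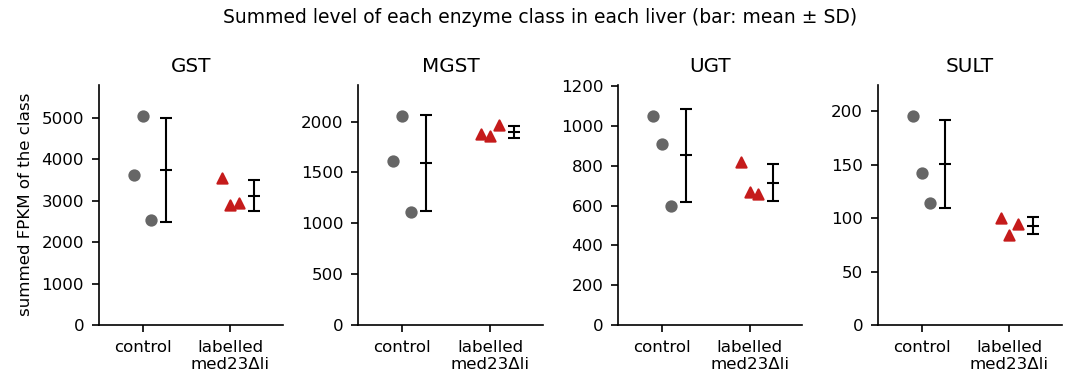
Summed FPKM of each enzyme class in each liver, with circles for controls, triangles for *med23*Δli-labelled livers and bars for mean ± SD (n = 3). The axes start at 0 and differ between panels; only the SULT sums of the groups do not overlap, with controls from 114 to 196 FPKM and labelled livers from 84.1 to 100 FPKM, and without *Sult1a1* these sums overlap too.

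Within the GST class, the most abundant gene and its neighbour behaved differently. *Gstp1* and *Gstp2* encode the pi-class enzymes, which conjugate electrophiles and bind stress kinases, and lie next to each other on the minus strand of chromosome 19 (chr19:4035407-4046023, mm10). *Gstp1* was at 2324, 2935 and 1619 FPKM in the controls and at 1973, 1744 and 1605 FPKM in the *med23*Δli-labelled livers. These ranges overlapped, and the log2 difference of −0.33 (standard error 0.23) had an adjusted p of 0.317 (limma). *Gstp2* was at 120, 154 and 163 FPKM in the controls and at 11.2, 7.61 and 12.0 FPKM in the *med23*Δli-labelled livers. Every control lay far above every labelled liver, a mean ratio of 14.2. The log2 difference of −3.83 (standard error 0.21, adjusted p = 0.0003, limma) was the largest in size of any conjugation gene tested, and it stayed between −3.96 and −3.63 with each liver left out in turn. *Gstp2* made up 4.91%, 4.98% and 9.17% of the summed *Gstp* level in the controls and 0.565%, 0.435% and 0.743% in the *med23*Δli-labelled livers.

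The *Gstp* genes are near copies, so the start of their coding sequences is given to show how few bases tell their transcripts apart. Of 630 coding bases 12 differed (98.1% identity), and 6 of these fell in the first 90 bases. The stretches below run from the start codon, are read from the GENCODE M21 transcripts on the minus strand, and have the differing bases in capitals. The *Gstp1* stretch lies within chr19:4037344-4037863 and the *Gstp2* stretch within chr19:4041638-4042165 (mm10), each interrupted by introns.
Gstp1: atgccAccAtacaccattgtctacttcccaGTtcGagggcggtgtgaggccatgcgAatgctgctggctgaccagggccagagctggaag
Gstp2: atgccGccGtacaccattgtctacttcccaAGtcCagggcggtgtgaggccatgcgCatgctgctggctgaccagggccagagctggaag

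Sharing was measured over the longest protein-coding transcript of each gene. There, 52.8% of the 100-base windows of *Gstp1* and 63.5% of those of *Gstp2* also occurred in a transcript of another gene. The other genes were the *Gstp* partner and *Gstp-ps*. Fragments that cover only such windows fit more than 1 gene. How the authors' counting divided them was not tested, and with *Gstp1* the far more abundant gene, the level of *Gstp2* is the less certain. The promoters differed more than the coding sequences. In the 150 bases before the RefSeq start (GRCm38.p6, minus strand, chr19:4037913-4038062 for *Gstp1* and chr19:4042222-4042371 for *Gstp2*), 116 positions were identical in an alignment of 165. Both hold TGAGTCA, the AP-1 site and an element known from pi-class GST genes, shown in capitals, which begins 74 bases before the start in *Gstp1* and 89 bases before it in *Gstp2*.
Gstp1: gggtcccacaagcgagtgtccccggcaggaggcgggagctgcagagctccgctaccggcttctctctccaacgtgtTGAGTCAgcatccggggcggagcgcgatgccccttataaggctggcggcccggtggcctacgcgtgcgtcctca
Gstp2: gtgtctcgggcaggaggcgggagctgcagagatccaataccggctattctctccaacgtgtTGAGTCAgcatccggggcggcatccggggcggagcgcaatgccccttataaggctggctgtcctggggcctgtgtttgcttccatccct

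TGAGTCA, searched on both strands from 250 bases before to 50 after the start, was present in 9 of the 54 conjugation genes with a RefSeq promoter (16.7%) and in 5.95% of all 27025 genes. *Gstp2* was the only called gene among the 9, and *Gstp1*, *Gstm5*, *Sult1b1* and *Ugt2b37*, which were not called, also hold it.

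The alpha-class gene *Gsta4*, whose enzyme conjugates the lipid peroxidation product 4-hydroxynonenal, was the other GST gene to fall. It was at 87.7, 165 and 37.6 FPKM in the controls and at 20.5, 6.99 and 9.75 FPKM in the *med23*Δli-labelled livers. The controls were far apart among themselves, yet the lowest of them was above every labelled liver. The log2 difference was −2.86 (standard error 0.56, adjusted p = 0.0132, limma), and without *med23*Δli replicate 3 the adjusted p was 0.0601. The other alpha genes, which act on steroids and hydroperoxides, were not called. *Gsta3*, the third most abundant GST gene, was at 195, 333 and 152 FPKM in the controls and at 325, 195 and 317 FPKM in the *med23*Δli-labelled livers. Its groups overlapped throughout, with a log2 difference of 0.34 (adjusted p = 0.454, limma). *Gsta1* had a log2 difference of 0.11 and *Gsta2* one of −1.26, with adjusted p-values of 0.886 and 0.243 (limma), and 81.8% and 35.0% of their windows are shared with other transcripts. *Gsta4* shares 0% and lies next to *Gsta1* on chromosome 9, with *Gsta2* beyond it.

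The mu class, which conjugates epoxides and quinones, occupies one run of 7 genes on chromosome 3 (chr3:107895821-108044894), and all 7 were tested. *Gstm2* was at 15.5, 13.1 and 11.4 FPKM in the controls and at 37.2, 26.3 and 35.6 FPKM in the *med23*Δli-labelled livers. *Gstm6* was at 20.4, 16.1 and 15.1 FPKM in the controls and at 40.5, 33.7 and 35.1 FPKM in the *med23*Δli-labelled livers. For both genes every labelled liver exceeded every control. The log2 differences were 1.30 (standard error 0.18, adjusted p = 0.00514, limma) and 1.09 (standard error 0.16, adjusted p = 0.00541, limma), and both calls held with each liver left out. The 2 genes are not neighbours, since *Gstm3* lies between them with overlapping groups and a log2 difference of −0.09 (adjusted p = 0.923, limma). *Gstm1*, the most abundant of the run, was at 449, 932 and 285 FPKM in the controls and at 622, 377 and 466 FPKM in the *med23*Δli-labelled livers. Control replicate 2 alone stood above all others, and the log2 difference was −0.04 (adjusted p = 0.950, limma). *Gstm7* and *Gstm5* had log2 differences of 0.64 and 0.36 and *Gstm4* one of −0.49, none of them past the test (adjusted p from 0.116 to 0.452, limma).

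*Gsto1*, an omega-class enzyme that reduces dehydroascorbate and thiol adducts more than it conjugates, showed the largest rise in the GST class. It was at 43.8, 63.2 and 44.7 FPKM in the controls and at 135, 154 and 111 FPKM in the *med23*Δli-labelled livers, a mean ratio of 2.63. The groups were well apart, and the log2 difference of 1.40 (standard error 0.19, adjusted p = 0.0046, limma) kept its call with each liver left out. *Gstz1*, which isomerizes maleylacetoacetate in tyrosine breakdown, was at 110 ± 32.1 FPKM in the controls and 153 ± 9.82 FPKM in the *med23*Δli-labelled livers (SD, n = 3 each). *Gstk1*, the mitochondrial kappa enzyme, was at 35.4 ± 7.55 and 47.7 ± 2.95 FPKM. Both had groups that did not overlap, but neither passed the test (adjusted p of 0.123 and 0.103, limma). The theta genes *Gstt1*, *Gstt2* and *Gstt3*, whose enzymes act on small halogenated compounds, had log2 differences of −0.58, −0.23 and −0.86 with overlapping groups, and 0 of 3 were called. *Gsto2* and *Gstt4* lay below the filter.

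Both measured MGST genes encode membrane enzymes, but at very different levels. *Mgst1*, the microsomal and mitochondrial enzyme that also reduces lipid hydroperoxides, was at 1594, 2027 and 1103 FPKM in the controls and at 1867, 1848 and 1959 FPKM in the *med23*Δli-labelled livers. The labelled livers lay within the range of the controls, with a log2 difference of 0.31 (standard error 0.22, adjusted p = 0.343, limma). *Mgst3*, a relative of leukotriene C4 synthase, was at 17.4, 28.5 and 8.97 FPKM in the controls and at 5.34, 5.80 and 6.08 FPKM in the *med23*Δli-labelled livers. All labelled livers were lower than all controls, a log2 difference of −1.50 (standard error 0.36, adjusted p = 0.0253, limma). That call was lost without control replicate 1 or without any 1 of the 3 labelled livers, where the adjusted p lay between 0.0739 and 0.0846. *Mgst1* held 98.9% ± 0.285 of the class sum in the controls and 99.7% ± 0.0105 in the *med23*Δli-labelled livers (SD, n = 3 each). *Mgst2*, which forms leukotriene C4, was listed at 0 in control replicate 1, lay between 0.0878 and 0.307 FPKM in the other livers and was not tested.

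**Figure D3:**
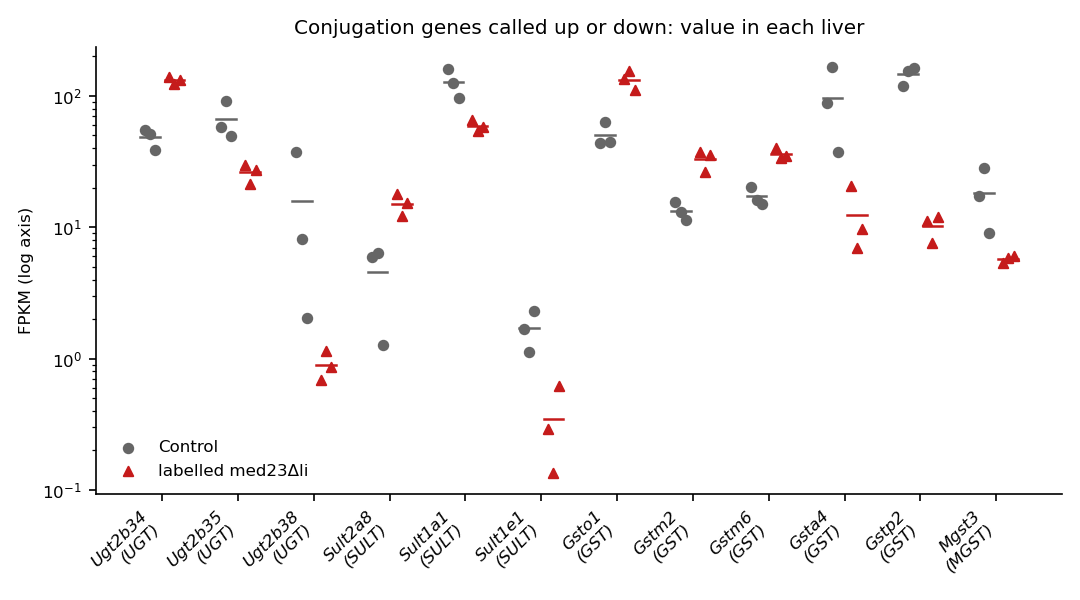
FPKM of the 12 called conjugation genes in each of the 6 livers, on a log axis, with circles for controls, triangles for *med23*Δli-labelled livers and short lines for group means. The groups do not overlap for any of the 12 genes; *Ugt2b38* has the widest controls, from 2.03 to 37.4 FPKM.

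In the SULT class, the dominant gene fell and a bile acid enzyme rose. *Sult1a1*, the phenol sulfotransferase (chr7:126672865-126676432), was at 161, 125 and 97.3 FPKM in the controls and at 65.6, 53.8 and 58.0 FPKM in the *med23*Δli-labelled livers. No labelled liver reached the lowest control, and the mean was 2.16 times higher in the controls. The log2 difference was −1.09 (standard error 0.20, adjusted p = 0.0106, limma); without control replicate 1 it was −0.90, still past the test but under 2-fold. *Sult2a8*, which sulfates bile acids (chr7:14410686-14446769), was at 5.98, 6.37 and 1.27 FPKM in the controls and at 17.8, 12.2 and 15.2 FPKM in the *med23*Δli-labelled livers. Each labelled liver was above each control, and control replicate 3 was the lowest by far. The log2 difference of 1.99 (standard error 0.54, adjusted p = 0.0375, limma) failed the adjusted test without control replicate 1 (0.0503) or without any 1 of the labelled livers (0.0848 to 0.114). Without control replicate 3 it passed but the difference was 1.26. *Sult1a1* took 85.3% ± 2.75 of the class sum in the controls and 63.6% ± 1.97 in the *med23*Δli-labelled livers, and *Sult2a8* took 2.88% ± 1.69 and 16.1% ± 1.58 (SD, n = 3 each). Shares of 1 sum depend on each other.

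*Sult1e1*, which sulfates and so inactivates oestrogens, was expressed at a low level. It was at 1.68, 1.12 and 2.28 FPKM in the controls and at 0.291, 0.133 and 0.615 FPKM in the *med23*Δli-labelled livers. The groups did not overlap, and the log2 difference was −2.10 (standard error 0.44, adjusted p = 0.0172, limma). With a pseudocount of 1 the difference shrank to −0.99, and without control replicate 1 or *med23*Δli replicate 1 the adjusted p was 0.0505 or 0.0613. *Sult1e1* lies on chromosome 5 in a row with *Sult1d1* and *Sult1b1* (chr5:87513339-87591594), next to the *Ugt2* genes. *Sult1d1*, known for catecholamine substrates, was at 13.5, 3.54 and 9.91 FPKM in the controls and at 10.6, 12.8 and 14.5 FPKM in the *med23*Δli-labelled livers. Control replicate 1 lay among the labelled livers, and the log2 difference of 0.68 had an adjusted p of 0.287 (limma). *Sult1b1*, which sulfates thyroid hormones, had 0.722 ± 0.193 and 1.10 ± 0.177 FPKM (SD, n = 3 each), and *Sult5a1* had 6.17 ± 4.92 and 4.23 ± 0.368 FPKM. Neither was called (adjusted p of 0.160 and 0.824, limma). The other 12 SULT genes lay below the filter. They include 7 of the 8 *Sult2a* genes, a group known in mice to be expressed mainly in female liver, and *Sult2a3*, *Sult2a4*, *Sult2a5* and *Sult2a6* were listed at 0 in all 6 livers.

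The 3 called UGT genes all belonged to the *Ugt2b* subfamily, whose enzymes glucuronidate steroids, bile acids and drugs. Its 7 genes lie in a run of 10 *Ugt2* genes on chromosome 5 (chr5:86889767-87490871), and 1 was up-regulated and 2 were down-regulated. *Ugt2b34*, at one end of the run (chr5:86889767-86906937), was at 55.2, 51.3 and 38.6 FPKM in the controls and at 139, 124 and 132 FPKM in the *med23*Δli-labelled livers. All labelled livers were above all controls, with a mean ratio of 2.73. The log2 difference was 1.46 (standard error 0.16, adjusted p = 0.00237, limma), and it kept its call with each liver left out. *Ugt2b35* (chr5:87000860-87013275) was at 58.1, 90.8 and 49.9 FPKM in the controls and at 30.0, 21.5 and 27.5 FPKM in the *med23*Δli-labelled livers. It changed in the opposite direction with no overlap, by a log2 difference of −1.30 (standard error 0.24, adjusted p = 0.0111, limma), which also held with each liver left out.

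*Ugt2b5*, the most abundant UGT gene, was at 419, 331 and 231 FPKM in the controls and at 201, 187 and 158 FPKM in the *med23*Δli-labelled livers. Each control was above each labelled liver. The fall of 0.81 on the log2 scale passed the test (adjusted p = 0.0388, limma) at less than 2-fold, and it passed in only 1 of the 6 fits that left out a liver, the one without control replicate 3. *Ugt2b38* was at 37.4, 8.19 and 2.03 FPKM in the controls and at 0.687, 1.14 and 0.856 FPKM in the *med23*Δli-labelled livers. The controls ran over a wider range than the gap between the groups, though no values crossed. The log2 difference of −3.15 (standard error 0.87, adjusted p = 0.0387, limma) likewise passed only without control replicate 3 among those fits, with adjusted p-values of 0.0540 to 0.115 in the other 5. The difference was −2.10 without control replicate 1 and −4.17 without control replicate 3. Sharing of windows with other transcripts was 24.7% for *Ugt2b5* and 24.2% for *Ugt2b38*, and close to 0 for *Ugt2b34* (0.285%) and *Ugt2b35* (0%). *Ugt2b36*, the runner-up in level, was at 179, 191 and 92.8 FPKM in the controls and at 146, 99.7 and 103 FPKM in the *med23*Δli-labelled livers. Its groups overlapped, with a log2 difference of −0.36 (adjusted p = 0.392, limma) that grew to −0.69 (adjusted p = 0.0379) without control replicate 3. *Ugt2b1* and *Ugt2b37* were not called, at log2 differences of 0.14 and −1.06 (adjusted p of 0.751 and 0.416, limma).

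*Ugt2b5* took 38.4% ± 1.75 of the UGT sum in the controls and 25.5% ± 2.10 in the *med23*Δli-labelled livers, and *Ugt2b34* took 5.80% ± 0.623 and 18.6% ± 1.55 (SD, n = 3 each). *Ugt2b36* held about the same part in both groups, 17.9% ± 2.84 and 16.1% ± 1.48. The shares of *Ugt2b5* and *Ugt2b34* did not overlap between the groups, whereas the class sum did.

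The promoters of the 3 called *Ugt2b* genes are shown because genes of 1 run changed in opposite directions. Each is the 250 bases before the RefSeq start (GRCm38.p6), with the nuclear receptor half-site AGGTCA in capitals where it occurs on the printed strand: *Ugt2b34* on the minus strand (chr5:86906938-86907187), *Ugt2b35* on the plus strand (chr5:87000610-87000859) and *Ugt2b38* on the minus strand (chr5:87424204-87424453).
Ugt2b34: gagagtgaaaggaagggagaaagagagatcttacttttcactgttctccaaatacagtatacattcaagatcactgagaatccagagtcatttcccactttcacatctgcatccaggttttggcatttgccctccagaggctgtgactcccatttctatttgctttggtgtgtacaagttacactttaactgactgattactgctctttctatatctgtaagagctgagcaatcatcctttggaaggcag
Ugt2b35: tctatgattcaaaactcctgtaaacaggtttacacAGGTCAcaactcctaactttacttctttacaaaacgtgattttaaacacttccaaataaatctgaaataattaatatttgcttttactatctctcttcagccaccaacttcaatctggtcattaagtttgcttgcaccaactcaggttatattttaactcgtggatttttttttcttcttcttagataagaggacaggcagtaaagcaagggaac
Ugt2b38: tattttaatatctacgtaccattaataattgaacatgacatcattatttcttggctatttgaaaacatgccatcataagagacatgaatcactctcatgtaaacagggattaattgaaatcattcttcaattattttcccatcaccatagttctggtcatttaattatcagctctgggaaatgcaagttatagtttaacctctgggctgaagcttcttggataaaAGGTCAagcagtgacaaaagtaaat

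AGGTCA begins 215 bases before the start in *Ugt2b35* and 25 bases before it in *Ugt2b38*, the down-regulated genes, and these letters are not in the window of the up-regulated *Ugt2b34*. The half-site also occurs in the windows of the up-regulated *Sult2a8* and the down-regulated *Sult1e1*. It occurs as well in those of 6 genes tested and not called, *Gstk1*, *Gstm1*, *Sult1b1*, *Ugt1a9*, *Ugt2b36* and *Ugt2b37*. Searched on both strands, it was in 12 of 54 conjugation promoters (22.2%) and in 18.1% of all promoters, so a match is common and is only a description. Other motifs were searched in the same windows. TGACNNNGC, the core of the antioxidant response element, which can overlap TGAGTCA on the other strand, was in 4 of 54 conjugation promoters against 14.0% of all, and 0 of these 4 genes was called. GCGTG, the core of the element bound by the aryl hydrocarbon receptor, was in 10 of 54 against 35.2% of all, and TATAAA, the TATA box, in 13 of 54 against 15.7%.

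The *Ugt1a* genes, among them the bilirubin enzyme *Ugt1a1*, share their last exons, and 57.2% to 100% of the windows of the 5 tested genes occur in another gene's transcript. Their division into single genes is uncertain for that reason, and the sum over the subfamily is the firmer value. The sum was 130, 116 and 108 FPKM in the controls and 145, 112 and 104 FPKM in the *med23*Δli-labelled livers. The groups overlapped fully, and none of the 5 genes was called (log2 differences from −0.41 to 0.15). *Ugt1a1* itself was at 34.0 ± 4.60 and 38.1 ± 8.16 FPKM (SD, n = 3 each), with an adjusted p of 0.584 (limma). *Ugt2a3* was at 33.2 ± 11.9 and 25.8 ± 3.68 FPKM and was not called. The *Ugt3a* genes, whose enzymes use sugars other than glucuronate, were higher in every labelled liver than in any control without passing the test. *Ugt3a1* had 2.80 ± 1.68 and 7.39 ± 3.23 FPKM and *Ugt3a2* had 25.6 ± 8.49 and 46.5 ± 12.6 FPKM (SD, n = 3 each), with adjusted p-values of 0.0714 and 0.0666 (limma). *Ugt1a2*, *Ugt1a7c*, *Ugt1a10*, *Ugt2a1* and *Ugt2a2* lay below the filter. Over all classes the 20 genes below it had means of at most 0.301 FPKM, and 5 of them were listed at 0 in every liver.

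The livers of a group differed more for these genes than for most others. The median coefficient of variation of the 42 genes was 34.5% in the controls and 19.7% in the *med23*Δli-labelled livers, against 17.8% and 10.3% for all genes tested. Control replicate 3 was the lowest control for 34 of the 42 genes (81.0%), against 35.8% of all genes. Control replicate 2 was the highest control for 11 of 19 GST genes (57.9%), against 31.3% of all genes, and for 10 of 12 NRF2 target genes outside the GST family, but for only 3 of 15 UGT and 1 of 6 SULT genes. Control replicate 1 was the highest control for 10 of the 15 UGT genes, against 4031 of all 11956 genes tested. Of the *med23*Δli-labelled livers, replicate 1 was the highest for 28 of the 42 genes, against 3856 of all 11956. The median level over all genes was between 2.99 and 3.09 on the log2 scale in the 6 livers. Centring each library on it left the same 12 genes called.

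**Figure D4:**
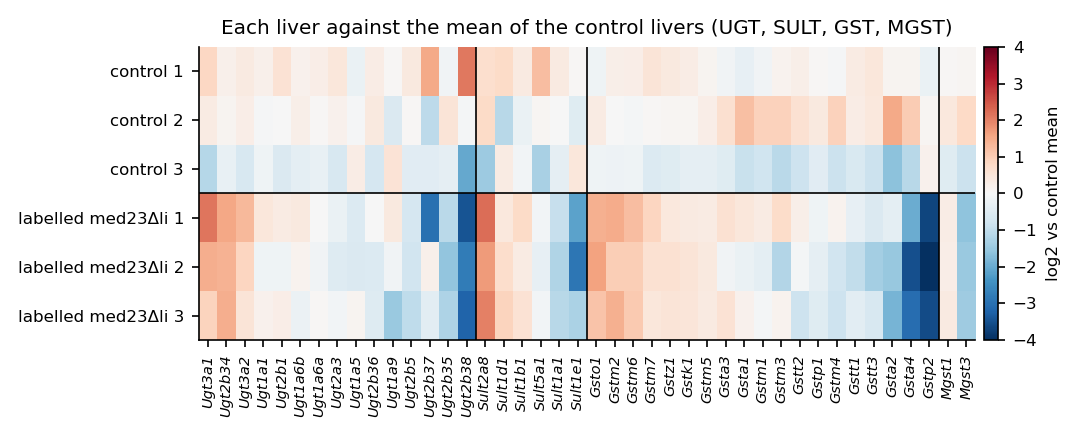
Log2(FPKM + 0.1) of each of the 42 tested conjugation genes in each liver, minus the mean of the 3 controls, in blue where lower and red where higher. Genes are ordered by log2 difference within UGT, SULT, GST and MGST, separated by vertical lines; control replicate 3 is the lowest control for 34 of the 42 genes.

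Genes that provide the donors for conjugation are given by donor. Beside the counts in these lists, 4.45% of all genes tested were up-regulated and 3.45% were down-regulated. The lists were chosen with earlier results of these data known. For UDP-glucuronate, *Ugp2*, which makes UDP-glucose, was at 186, 128 and 115 FPKM in the controls and at 74.1, 73.0 and 57.3 FPKM in the *med23*Δli-labelled livers. Every labelled liver was lower, with a log2 difference of −1.05 (standard error 0.21, adjusted p = 0.0137, limma). *Ugdh*, which oxidizes it to UDP-glucuronate, fell by 0.80 on the log2 scale (adjusted p = 0.0317, limma), and the 4 transporters tested did not pass. For PAPS, 2 of 9 genes were called, both up-regulated. *Papss2*, a PAPS synthase, was at 4.47, 3.16 and 2.58 FPKM in the controls and at 8.27, 5.85 and 8.56 FPKM in the *med23*Δli-labelled livers, and *Slc26a1*, a sulfate transporter, had a log2 difference of 1.61 (adjusted p = 0.00389, limma). Both had all labelled livers above all controls. *Suox* and *Bpnt1*, which form sulfate from sulfite and clear the spent donor, rose by less than 2-fold (0.85 and 0.65 on the log2 scale, adjusted p of 0.0153 and 0.0427, limma).

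For glutathione, 2 of 13 genes were up-regulated and 2 down-regulated, against 4.45% and 3.45% of all genes. At an adjusted p under 0.05 and any size, 2 were higher and 3 lower (11.6% and 9.48% of all genes). *Gclc*, the catalytic subunit of the rate-limiting enzyme, was at 302, 524 and 292 FPKM in the controls and at 147, 187 and 104 FPKM in the *med23*Δli-labelled livers, with no overlap and a log2 difference of −1.34 (adjusted p = 0.0175, limma). *G6pdx*, a source of NADPH for glutathione recycling, had a log2 difference of −1.70 (adjusted p = 0.0171, limma). Among genes that supply cysteine, *Cth* rose by 1.48 and the cystine transporter *Slc7a11* by 3.13 on the log2 scale (adjusted p of 0.00276 and 0.0078, limma). *Slc7a11* was low in the controls, at 0.347 to 0.761 FPKM, and between 2.04 and 8.17 FPKM in the *med23*Δli-labelled livers. In the mercapturate pathway, which trims and acetylates glutathione conjugates, *Nat8* and *Acy3* were down-regulated of 8 tested (log2 differences of −1.78 and −1.23, adjusted p of 0.0461 and 0.011, limma). Of the 5 deconjugation genes tested only *Arsa*, a lysosomal sulfatase, was called (log2 difference 1.29, adjusted p = 0.00499, limma).

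**Figure D5:**
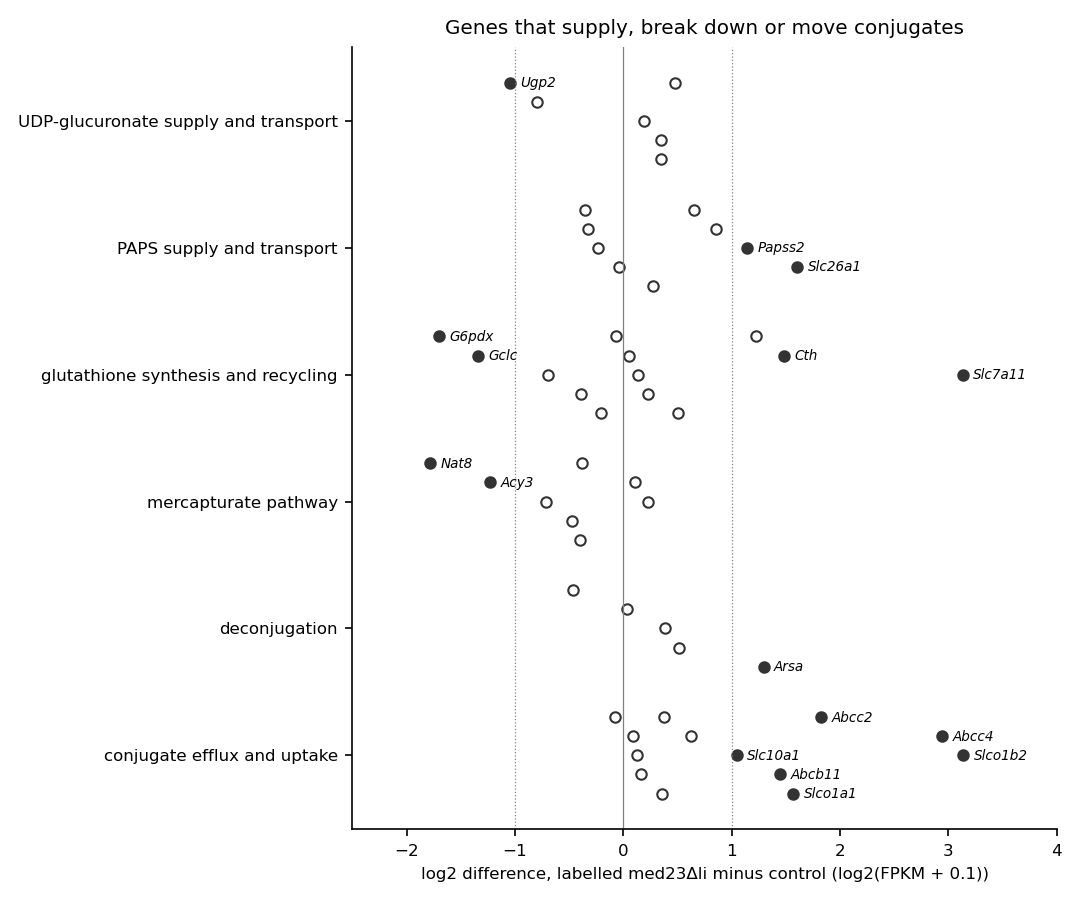
Log2 difference between the *med23*Δli-labelled livers and the controls for genes that supply donors, process conjugates or transport them, 1 point per gene tested, with called genes filled and named and dotted lines at 2-fold. The efflux and uptake genes hold 6 called genes of 13, all higher in the *med23*Δli-labelled livers, against 7.9% of all genes called in either direction. The vertical spread of points within a list has no meaning.

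Transporters of conjugates and their substrates had 6 of 13 genes up-regulated and 0 down-regulated, against 4.45% and 3.45% of all genes tested. Their median log2 difference was 0.63, and this list too was chosen with earlier results of these data known. *Abcc2*, which exports conjugates into bile, was at 14.0, 18.2 and 14.8 FPKM in the controls and at 52.0, 69.7 and 47.1 FPKM in the *med23*Δli-labelled livers. *Abcc4*, which exports them to blood, was at 1.08, 0.958 and 1.74 FPKM in the controls and at 10.2, 8.45 and 11.8 FPKM in the *med23*Δli-labelled livers. Both groups were far apart for each gene, with log2 differences of 1.83 and 2.94 (adjusted p of 0.00173 and 0.000918, limma). The uptake transporter *Slco1b2* had a log2 difference of 3.14 (adjusted p = 0.000619, limma), and *Slco1a1*, *Slc10a1* and the bile salt pump *Abcb11* had 1.57, 1.05 and 1.45. *Abcc3* did not pass the test (log2 difference 0.09, adjusted p = 0.847, limma).

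Of 15 genes for other conjugations tested, *Bhmt*, a betaine methyltransferase, and *Acsm5*, which activates acids for conjugation with glycine, were up-regulated (log2 differences of 2.43 and 1.39, adjusted p of 0.00494 and 0.0208, limma). Of 20 regulators tested, 2 were up-regulated and 1 was down-regulated. *Nr1i3*, which encodes the xenobiotic receptor CAR, was at 4.50, 7.89 and 4.83 FPKM in the controls and at 32.2, 33.0 and 28.3 FPKM in the *med23*Δli-labelled livers. It was higher in every labelled liver, with a log2 difference of 2.46 (adjusted p = 0.0013, limma). *Nfe2l2*, which encodes NRF2, had a log2 difference of 0.10 (adjusted p = 0.668, limma). Among 12 NRF2 targets outside the GST family, *Nqo1*, *Cbr1*, *Cbr3* and *Gclc* were down-regulated and *Slc7a11* and *Abcc4* up-regulated. *Nqo1* was at 6.59, 22.6 and 3.85 FPKM in the controls and at 2.17, 1.40 and 1.72 FPKM in the *med23*Δli-labelled livers, without overlap (log2 difference −2.20, adjusted p = 0.0305, limma). *Cbr1* and *Cbr3*, carbonyl reductases, had log2 differences of −1.48 and −2.37 (adjusted p of 0.0077 and 0.0245, limma).

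Some marker genes of liver zones moved beside these results. The pericentral genes *Cyp2e1* and *Cyp1a2* were up-regulated of 7 pericentral genes tested (log2 differences of 1.26 and 1.62), and 2 of 8 periportal genes were down-regulated, *Hal* among them (log2 difference −1.45). Over all genes tested, 4.45% were up-regulated and 3.45% were down-regulated. Of the other pericentral genes, *Axin2* had a log2 difference of 0.97 (adjusted p = 0.0292, limma), *Glul* and *Oat* had 0.18 and 0.38, and *Slc1a2* and *Rhbg* had −0.46 and −0.73, the last 4 not past the test. Of 9 male-biased liver genes, *Slco1a1* was up-regulated and *Cyp7b1* and *Cyp4a12b* were down-regulated, and 0 of the 2 female-biased genes tested was called. At an adjusted p under 0.05 and any size, 1 male-biased gene was higher and 3 were lower, against 11.6% and 9.48% of all genes. The part of zonation or of sex-biased expression in the conjugation genes was not tested.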

How the data were processed

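RNA-seq libraries were made from whole livers, 3 per group in the design text. The authors trimmed adapters after FastQC, aligned paired reads to mm10 with TopHat and obtained the deposited FPKM per gene and library with Cuffdiff. Tool versions, annotation and Cuffdiff options are not given in the sources used here. The deposited table also holds the authors' group means and test columns (fold changes, p-values and q-values), which were not used. Read counts cannot be recovered from FPKM, so the depth of each library is unknown and the spread between the 3 livers of a group is the only error. The labels give no identifier of the mouse behind each library, so p-values measure only the spread between these samples, which may be partly technical.

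The 11956 genes averaging 0.5 FPKM or more across the 6 libraries were compared as log2(FPKM + 0.1) in limma 3.58.1 (R 4.3.3), using lmFit and eBayes with a mean-variance trend. The p-values were adjusted by Benjamini-Hochberg over all of these genes. The fit was tested on simulated data. An exact two-sided permutation test of 3 livers against 3 cannot give a p below 0.1. No test was made on a class. The members and gene lists were chosen with earlier results of these data known. Values in every liver are given for called genes (up to 8 per class and direction) and for the 3 most abundant genes of each class. From each list of other genes, the called genes or up to 4 with the largest differences are named. A few called genes of these lists are exceptions and are not reported here.

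Positions and transcripts are from GENCODE release M21 (the mm10 assembly) and promoters from RefSeq (GRCm38.p6), with 54 of the 62 genes matched. RefSeq starts can lie inside the gene extents of GENCODE. Window sharing is the share of 100-base windows of a gene's longest protein-coding transcript found in any transcript of another gene, pseudogenes included. Python 3.11.15, pandas 2.3.3, numpy 2.4.6, Biopython 1.88 and matplotlib 3.10.9 were used for the rest. The fit was repeated with a pseudocount of 1 or 0.01, without the filter or with it at 1 FPKM, after median centring or quantile normalization, with robust eBayes or no trend, with a replicate block, and with each liver left out.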

Additional observations from a re-analysis of the deposited data

How the results depend on the processing

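*Gstp2*, *Gstm2*, *Gstm6*, *Gsto1*, *Ugt2b34* and *Ugt2b35* were called under all 9 alternative settings and with each liver left out. With each liver left out in turn, the number of up-regulated conjugation genes ranged from 4 to 5, of down-regulated ones from 3 to 10, and of those with an adjusted p under 0.05 from 8 to 18. The median log2 difference then ranged from −0.17 to 0.58 for SULT, from −0.44 to 0.42 for GST, from −0.19 to −0.07 for UGT and from −0.93 to −0.30 for MGST. The SULT median was −0.19 with a filter at 1 FPKM, which removed a gene, and the MGST median was 0.31 with no filter, which added *Mgst2*. The *Gstm1* difference turned to 0.42 without control replicate 2 and to 0.13 without *med23*Δli replicate 2. With each liver left out, the difference ranged from 0.12 to 1.07 for *Sult1d1* and from 0.09 to 0.66 for *Gsta3*. It ranged from 0.07 to 0.51 for *Mgst1* and from −0.56 to −0.13 for *Gstp1*. *Ugt2b38* and *Sult2a8* lost their calls with no filter, without the trend and with robust eBayes, and *Mgst3* lost its call with no filter. *Ugt2b5* no longer passed the test with no filter (adjusted p = 0.0710, limma) or without the trend (0.0520), and these settings left 9 and 10 genes with an adjusted p under 0.05. *Sult1e1* and *Ugt2b38* lost theirs with a pseudocount of 1. The causes were not tested.

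Both groups carry replicate numbers 1 to 3, but nothing in the labels says that a number marks a pair. The deviations of same-numbered livers correlated at −0.02, −0.05 and −0.12, so the numbers were not taken as pairs. With the replicate block, 13 conjugation genes were called, the 12 of the fit without it and *Ugt3a1*, with 6 up-regulated and 7 down-regulated, and 15 had an adjusted p under 0.05. Depth could not be examined, since FPKM values carry no counts.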
